A study of Mus musculus with 15 samples.

Results

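GABA-A receptor subunit genes other than Gabra6 were followed in mouse brain RNA sequencing, over 15 libraries from 5 groups of 3. The 7 genes were Gabra2, Gabra3, Gabra4, Gabra5, Gabrb1, Gabrb2 and Gabrd, chosen by symbol from the 45777 gene symbols in the deposited files. All 7 had enough reads to be tested, among 21821 genes that had.

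In the study, mice received MPTP, which is toxic to dopamine neurons, before treatment with levodopa or with an inhibitor of Bruton's tyrosine kinase (BTK). In the high-dose group, intraperitoneal MPTP (20 mg/kg/day) ran for 1 week, and 4 weeks of the inhibitor followed at 2 µg/kg/day, also labelled 50 pM. In the low-dose group the same MPTP week was followed by 4 weeks of the inhibitor at 1 µg/kg/day, also labelled 25 pM. The levodopa group had the MPTP week and then levodopa at 2 mg/kg/day for 4 weeks, by a route that the labels give both as oral and as intraperitoneal. The MPTP group had the MPTP week and then 4 weeks of normal diet, and the control group had normal diet for 5 weeks with no MPTP. All samples carry a time of 6 weeks and a tissue of brain with no region, and the labels used here give no genotype, strain or age. The protocol names 8 mice per group while 3 libraries per group were analysed, and nothing in the labels ties a library to its own mouse. The p-values therefore refer to the spread between libraries, which may be technical.

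GABA-A receptors are chloride channels opened by GABA, the main inhibitory transmitter of the brain. Each channel is a ring of subunits, typically alpha and beta subunits with a gamma or a delta subunit. The alpha subunit sets much of the pharmacology and the place of the receptor in the cell, and different brain regions use different alpha subunits. Receptors with gamma subunits carry most of the fast inhibition at synapses, whereas receptors with delta subunits sit outside synapses and respond to low, steady levels of GABA.

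The genes lie in receptor clusters (GRCm38 coordinates, GENCODE M21). Gabra2 is on the minus strand of chromosome 5 at 70957597 to 71095849, near Gabra4 at 71569749 to 71658308 on the minus strand and Gabrb1 at 71658113 to 72149037 on the plus strand. Gabrb2 is on the plus strand of chromosome 11 at 42419757 to 42629028, in a cluster that also holds Gabra6. Gabra5 is on the minus strand of chromosome 7 at 57407672 to 57510059, Gabra3 on the minus strand of chromosome X at 72432681 to 72656848, and Gabrd on the minus strand of chromosome 4 at 155384980 to 155398112. Gabra4 and Gabrb1 overlap by 196 bases on opposite strands, with no base that is exonic in both. The strand setting used in counting is not given in the sources used here, so reads from stretches where genes overlap, Gabra5 included, could be assigned to either gene.

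Promoter sequence is shown for Gabrb2 and Gabra5, the members that most of the results below concern, chosen after their values were seen. Each is the 250 bases upstream of an annotated start in RefSeq's GRCm38.p6 table, which held windows for 6 of the 7 genes. The Gabrb2 sequence is chr11:42420190-42420439 on the plus strand and the Gabra5 sequence is chr7:57510060-57510309 on the minus strand, with capitals marking motif matches.
Gabrb2: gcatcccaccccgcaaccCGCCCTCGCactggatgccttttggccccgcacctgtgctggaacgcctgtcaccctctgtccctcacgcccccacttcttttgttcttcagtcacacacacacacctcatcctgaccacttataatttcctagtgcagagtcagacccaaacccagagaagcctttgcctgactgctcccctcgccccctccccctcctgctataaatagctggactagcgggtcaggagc
Gabra5: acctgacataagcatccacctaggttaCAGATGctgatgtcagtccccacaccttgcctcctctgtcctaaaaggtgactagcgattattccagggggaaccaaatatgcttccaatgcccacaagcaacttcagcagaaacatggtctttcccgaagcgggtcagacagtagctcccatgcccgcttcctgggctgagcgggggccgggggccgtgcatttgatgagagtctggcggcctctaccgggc

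GC content was 58.8% in the Gabrb2 window and 56.4% in the Gabra5 window. Both strands were searched for TGACG (a CRE half-site), GCGNGGGCG (an EGR site) and CAGATG (a NEUROD E-box), and the matches shown do not overlap. The Gabrb2 window shown held 1 match to the EGR site and is 1 of 3 Gabrb2 windows in the table, of which the other 2 held no match to any of the motifs. The Gabra5 window, the only one for that gene, held 1 match to the E-box. Of 32851 promoter windows of this length, 4.697% held the EGR site, 14.444% the E-box and 17.765% the CRE half-site, so that matches of this kind are a description only.

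Depth was 58149722 to 61998459 reads per inhibitor library (6 libraries) and 63314658 to 68257095 reads per library in the other 9, so these sets did not overlap in depth. Their deposited count files also differed in layout, with 26 columns for each inhibitor library and 53 for each of the others. The labels name no batch. In comparisons of inhibitor libraries with other groups, the inhibitor and whatever this split marks cannot be told apart. Every member had at least 132 reads in every library. Levels are in CPM, that is reads relative to the TMM-normalized library total. The 7 subunits summed to between 706 and 1056 CPM per library. The libraries also differed in regional markers. The 8 cerebellar markers summed to 5310 CPM in levodopa 2 and 6422 CPM in control 2, against 31.6 to 80.6 CPM in the other 13 libraries. Gabra6, the granule cell subunit among these markers, had 556 CPM in levodopa 2 and 649 CPM in control 2. The 8 cortex and hippocampus markers summed to 109 to 422 CPM in the 6 inhibitor libraries and 22.2 to 33.5 CPM in the MPTP libraries. Control libraries had 41.7 to 199 CPM, where 199 CPM was control 2 and control 1 had 55.3 CPM. The 6 thalamus markers summed to 172 to 627 CPM in the inhibitor libraries, against 822 to 1105 CPM in the MPTP libraries and 178 to 1010 CPM in the control libraries. The 10 striatum markers summed to 736 to 2046 CPM in the inhibitor libraries, against 315 to 394 CPM in the MPTP libraries and 464 to 3261 CPM in the control libraries. Other lists differed between the inhibitor and MPTP libraries too. Choroid plexus markers summed to 275 to 1445 CPM in inhibitor libraries against 6.31 to 14.1 CPM in MPTP libraries, and interneuron markers to 264 to 543 CPM against 163 to 205 CPM. Endothelium markers summed to 35.0 to 88.7 CPM in inhibitor libraries against 94.6 to 150 CPM in MPTP libraries, and dopamine neuron markers to 23.4 to 212 CPM against 223 to 341 CPM. The part of these lists in the results was not tested. The 7 general neuron markers were present in all libraries, with a sum of 4664 to 6225 CPM. At 0 were Gabra6 in control 1, MPTP 2, MPTP 3 and high dose 2, Fat2 in MPTP 1 and MPTP 3, and Pcp2 in MPTP 1 among the cerebellar markers, Fezf2 in levodopa 1 and control 2 among the cortical markers, and Gpr6 in control 2 among the striatal markers, and no thalamus marker was at 0. Among the dopamine neuron markers, Pitx3 was at 0 in control 2, levodopa 2, high dose 1 and low dose 1. Slc6a3 was at 0 in control 2, and En1 in low dose 1. Vip, an interneuron marker, was at 0 in control 2, and Kcnj13, a choroid plexus marker, in MPTP 1. In bulk tissue, fewer cells of a type and less RNA per cell cannot be told apart.

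On a scale that allows genes to be compared, CPM per kilobase of annotated exon, Gabrb2 was the most abundant of the 7, with a mean level of 80.6 CPM per kilobase over the 15 libraries. Gabra3 followed with a mean of 30.3 and Gabrd with 26.3 CPM per kilobase. Gabra4 averaged 23.0, Gabra2 20.8, Gabra5 15.3 and Gabrb1 11.1 CPM per kilobase. In CPM, the highest library exceeded the lowest by 87.4-fold for Gabrd and 36.9-fold for Gabra5, against 7.98-fold for Gabra3, 4.95-fold for Gabra4, 2.67-fold for Gabrb1, 2.17-fold for Gabrb2 and 2.02-fold for Gabra2. Without levodopa 2 and control 2 these ratios were 28.0 for Gabrd, 2.79 for Gabra5, 1.46 for Gabra3 and 4.95 for Gabra4.

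**Figure D1:**
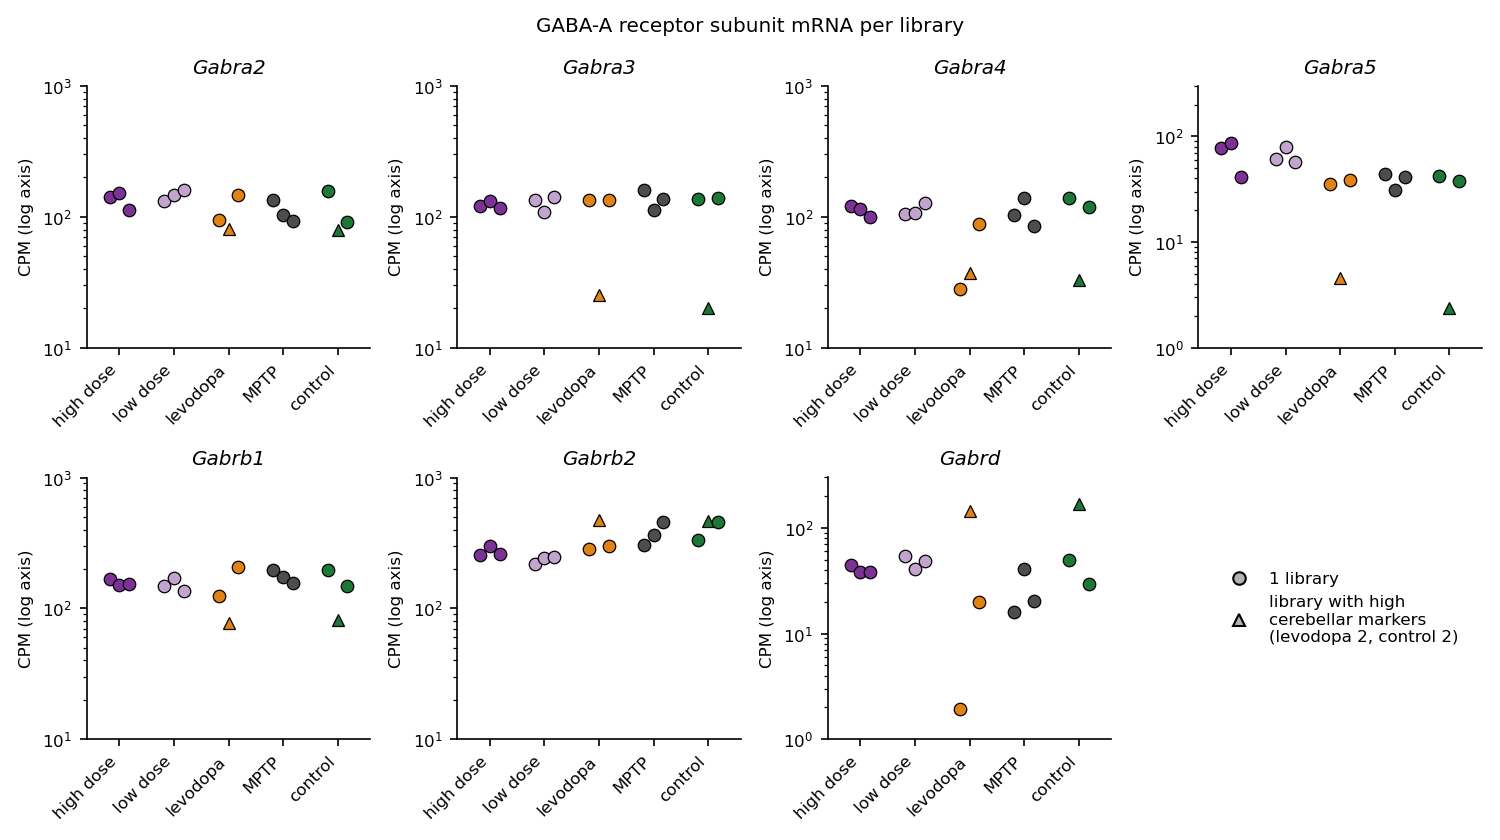
Level of each subunit in each of 15 libraries, in TMM-scaled CPM on a log axis, by group (3 libraries each); triangles are the libraries with high cerebellar markers. Gabrb2 lies at 217 to 298 CPM in the 6 inhibitor libraries and at 305 to 458 CPM in the MPTP libraries, while Gabra3 and Gabra5 are lowest and Gabrd highest in levodopa 2 and control 2.

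Relative to MPTP alone, no subunit passed the test at either inhibitor dose, although Gabrb2 was lower in all 6 inhibitor libraries than in any MPTP library. With edgeR's quasi-likelihood test and Benjamini-Hochberg adjustment at 0.05, 0 of 7 subunits were called at the low dose, against 8.53% of all genes tested, and 0 of 7 at the high dose, against 1.97% of all genes. Gabrb2 alone had an unadjusted p under 0.05, 1 of 7 subunits in each comparison, beside 25.8% of all genes at the low dose and 18.5% at the high dose. DESeq2 called 1 subunit at the low dose (Gabrb2, adjusted p = 0.0214) and 0 at the high dose. The median log2 fold change of the 7 was 0.06 at the low dose and 0.04 at the high dose, beside medians of -0.0045 and -0.011 over all genes. The libraries of the compared groups did not overlap for 3 of 7 subunits at the low dose, where 40.7% of all genes showed this, and for 1 of 7 at the high dose, where 39.8% of all genes did. Without levodopa 2 and control 2, which enter the spread that all groups share, edgeR called Gabrb2 and Gabra5 at the low dose and Gabra5 at the high dose, in a fit that called 23.7% of all genes at the low dose and 11.1% at the high dose.

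Relative to control, Gabrb2 fell at the low dose and was the only subunit called in any of 8 comparisons. The test called 1 of 7 subunits at the low dose, where 5.4% of all genes were called and 2.66% were called lower, and 0 of 7 at the high dose, where 0.376% of all genes were called. DESeq2 gave the same counts of 1 and 0. In the comparison of the high dose against the low dose, of MPTP against control, of levodopa against MPTP and of levodopa against control, 0 of 7 subunits and 0% of all genes were called with edgeR, and DESeq2 called 0 of 7 as well. At an unadjusted p under 0.05 these comparisons held 0, 0, 1 (Gabra4) and 0 subunits in that order, beside 2.23%, 6.62%, 2.96% and 3.74% of all genes. Against control, the low dose held 1 and the high dose 1 (Gabrb2 in both) at that level, beside 24.4% and 20.0% of all genes. Libraries did not overlap for 2 of 7 subunits at the low dose against control (26.2% of all genes), 1 of 7 at the high dose against control (27.4%), 1 of 7 between the doses (10.6%), 0 of 7 for MPTP against control (13%), 0 of 7 for levodopa against MPTP (9.58%) and 0 of 7 for levodopa against control (6.43%). The comparisons against MPTP share the MPTP libraries, and those against control share the control libraries.

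Ranked by mean level from high to low, the groups came in a different order for different subunits. Gabrb2 ran control, MPTP, levodopa, high dose, low dose, and of these neighbours only the high-dose and low-dose libraries did not overlap. Gabra5 ran high dose, low dose, MPTP, control, levodopa, and of these neighbours only the low-dose and MPTP libraries did not overlap. Gabra2 and Gabra4 had both inhibitor doses first and levodopa last, Gabra3 and Gabrb1 had MPTP first, and Gabrd had control first and MPTP last. For these 5 genes the libraries of every pair of neighbouring groups overlapped.

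Gabra2 encodes an alpha subunit of forebrain synapses that is enriched at the start of the axon of principal cells. It had 143, 153 and 113 CPM in high-dose libraries 1 to 3 and 131, 148 and 159 CPM in low-dose libraries 1 to 3. It had 95.3, 80.8 and 146 CPM in levodopa libraries, 134, 102 and 92.3 CPM in MPTP libraries, and 158, 78.9 and 91.2 CPM in control libraries. The inhibitor libraries sat in a narrow band toward the top, but single MPTP, levodopa and control libraries reached the same levels, so every pair of groups next to each other in mean overlapped. The log2 fold change over MPTP was 0.42 ± 0.27 (SE) at the low dose (edgeR adjusted p = 0.363) and 0.31 ± 0.27 at the high dose (edgeR adjusted p = 0.595). With scores of the cerebellum, cortex and hippocampus, and thalamus lists as covariates these turned to -0.79 and -0.66, which did not pass either. Each score is the mean log2 CPM of a list's markers, relative to the mean of 15 libraries, and not their summed CPM. The cortex and hippocampus score ran from 0.75 to 2.80 in the inhibitor libraries. It did not overlap that of the MPTP libraries (-2.263 to -1.245) or the control libraries (-1.485 to -1.186). A fit with these covariates therefore cannot tell regional markers from treatment, here and for the genes below.

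Gabra3 encodes an alpha subunit known from monoamine neurons and the reticular thalamus. It had 121, 133 and 117 CPM at the high dose, 134, 110 and 142 CPM at the low dose, and 160, 112 and 137 CPM after MPTP alone. It had 136, 25.2 and 136 CPM in levodopa libraries and 136, 20.0 and 139 CPM in control libraries. Levodopa 2 and control 2, the libraries with high cerebellar markers, held the low values, and the other 13 libraries lay within 1.46-fold of each other. The log2 fold change over MPTP was -0.08 ± 0.62 (SE) at the low dose (edgeR adjusted p = 0.951) and -0.14 ± 0.62 at the high dose (edgeR adjusted p = 0.937). Without MPTP 1 these were 0.058 and 0.0051.

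Gabra4 encodes the alpha subunit that joins delta in receptors outside synapses in the thalamus, striatum and dentate gyrus. It had 121, 115 and 99.3 CPM at the high dose, 104, 107 and 128 CPM at the low dose, and 103, 138 and 84.7 CPM after MPTP alone. It had 28.1, 37.6 and 88.6 CPM in levodopa libraries and 139, 32.9 and 118 CPM in control libraries. The low libraries were levodopa 1, control 2 and levodopa 2, and cerebellar markers summed to only 43.3 CPM in levodopa 1. Gabra4 averaged 51.4 ± 32.5 CPM in levodopa libraries and 109 ± 27.3 CPM in MPTP libraries (SD, n = 3 each). The log2 fold change was -1.08 ± 0.47 (SE) and did not pass (edgeR adjusted p = 0.954). Against MPTP the log2 fold change was 0.06 ± 0.47 at the low dose and 0.04 ± 0.47 at the high dose (edgeR adjusted p = 0.957 and 0.977). These turned to -0.89 and -0.91 with the regional scores as covariates.

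Gabra5 encodes an alpha subunit of pyramidal cells of the hippocampus, largely in receptors outside synapses. It had 77.7, 87.3 and 41.7 CPM at the high dose and 60.8, 79.6 and 57.5 CPM at the low dose. It had 35.8, 4.52 and 39.1 CPM in levodopa libraries, 44.4, 31.3 and 41.2 CPM in MPTP libraries and 42.6, 2.36 and 38.0 CPM in control libraries. All inhibitor libraries except high dose 3 stood above all other libraries, and high dose 3 lay among the MPTP libraries, so that only the low-dose libraries were clear of the MPTP and control libraries. The lowest values were again those of levodopa 2 and control 2, and 144 reads stood behind the value of control 2.

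The Gabra5 mean was 68.9 ± 24.0 CPM at the high dose, 66.0 ± 11.9 CPM at the low dose, 38.9 ± 6.84 CPM after MPTP alone and 27.6 ± 22.0 CPM in controls (SD, n = 3 each). The log2 fold change over MPTP was 0.82 ± 0.81 (SE) at the high dose and 0.76 ± 0.81 at the low dose (edgeR adjusted p = 0.655 and 0.603). Over control it was 1.32 ± 0.82 at the high dose and 1.25 ± 0.82 at the low dose (edgeR adjusted p = 0.380 and 0.368). Without control 2 these were 0.77 and 0.70 (edgeR adjusted p = 0.659 and 0.591), and with the regional covariates -0.018 and 0.025. Without levodopa 2 and control 2 the log2 fold change over MPTP was 0.82 at the high dose and 0.76 at the low dose, and both passed (edgeR adjusted p = 0.0437 and 0.0353), and the fit of only the compared groups also passed at the low dose (edgeR adjusted p = 0.0145). Over the alternatives that keep all libraries of the compared groups or leave out that pair, adjusted p ran from 0.0437 to 0.906 at the high dose and from 0.0145 to 0.929 at the low dose. With 3 regional scores as covariates the log2 fold change over MPTP was 0.35 at the high dose and 0.39 at the low dose (edgeR adjusted p = 0.906 and 0.929). Cortex and hippocampus markers were also higher than after MPTP alone, at 264 to 422 CPM in low-dose and 109 to 371 CPM in high-dose libraries. MPTP libraries had 22.2 to 33.5 CPM. Over single libraries these markers and Gabra5 ran together in some groups and apart in others. In high dose 3, 1 and 2 both rose in that order, at 109, 241 and 371 CPM of markers and 41.7, 77.7 and 87.3 CPM of Gabra5. Among low-dose libraries, low dose 3 had the highest sum (422 CPM) and the lowest Gabra5 (57.5 CPM). The markers summed to 170 CPM in levodopa 2 and 199 CPM in control 2, where Gabra5 was lowest. By the list score, however, levodopa 2 (-1.22) and control 2 (-1.19) lay below all inhibitor libraries (0.75 to 2.80). Their part in the result was not tested, since the covariate fit cannot tell regional markers from treatment.

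Gabrb1 encodes a beta subunit found in neurons and in some astrocytes. It had 169, 152 and 153 CPM at the high dose, 148, 171 and 136 CPM at the low dose, and 197, 172 and 157 CPM after MPTP alone. It had 124, 77.8 and 208 CPM in levodopa libraries and 195, 81.2 and 148 CPM in control libraries. Levodopa 2 and control 2 were again the low libraries, and all neighbouring groups overlapped. The log2 fold change over MPTP was -0.21 ± 0.32 (SE) at the low dose and -0.15 ± 0.32 at the high dose (edgeR adjusted p = 0.728 and 0.858).

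Gabrb2 encodes the beta subunit of the most common synaptic receptor. It had 255, 297.7 and 261 CPM in high-dose libraries 1 to 3 and 217, 244 and 248 CPM in low-dose libraries 1 to 3. It had 286, 469 and 297.8 CPM in levodopa libraries, 305, 366 and 458 CPM in MPTP libraries and 335, 468 and 454 CPM in control libraries. All 6 inhibitor libraries were below all 3 MPTP and all 3 control libraries, but they overlapped the levodopa libraries. Levodopa 1 (286 CPM) lay below the highest inhibitor library, high dose 2 (297.7 CPM), and levodopa 3 (297.8 CPM) lay just above it. The lower level was therefore not shown to be particular to the inhibitor. A separation of the 6 inhibitor libraries from the MPTP libraries was seen for 28.5% of all genes and from the control libraries for 17.1%, and among the 7 subunits Gabrb2 was the only such gene in either case. The low-dose libraries were also all below the high-dose libraries.

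Gabrb2 averaged 271 ± 23.1 CPM at the high dose, 236 ± 17.0 CPM at the low dose, 376 ± 77.1 CPM after MPTP alone and 419 ± 73.1 CPM in controls (SD, n = 3 each). At the low dose the log2 fold change was -0.83 ± 0.21 (SE) against control, which passed (edgeR adjusted p = 0.0405), and -0.67 ± 0.21 against MPTP, which did not (edgeR adjusted p = 0.0611). At the high dose it was -0.63 ± 0.21 against control and -0.47 ± 0.20 against MPTP (edgeR adjusted p = 0.141 and 0.237). Between the doses it was 0.20 ± 0.20 for the high over the low dose (edgeR adjusted p = 1), so the lower level at the low dose was not distinguishable from the high dose by the test. The call against control was lost without control 2 (edgeR adjusted p = 0.113), without control 3 (0.0852) and without low dose 1, 2 or 3 (0.115, 0.0837 and 0.113), and was kept without control 1 (0.0292). The log2 fold changes in these fits were -0.75, -0.79, -0.76, -0.85, -0.86 and -0.97 in the same order. With the regional scores as covariates the log2 fold change at the low dose was -0.42 against control and -0.44 against MPTP (edgeR adjusted p = 0.970 and 0.878). Over these and the remaining alternatives, leave-one-out fits aside, adjusted p at the low dose ran from 0.00382 to 0.970 against control and from 0.00785 to 0.878 against MPTP. Thalamus markers were also lower than after MPTP alone, at 172 to 344 CPM in low-dose and 279 to 627 CPM in high-dose libraries. MPTP libraries had 822 to 1105 CPM. Over single libraries these markers and Gabrb2 ran together in some groups and apart in others. From low dose 1 to 3 both rose, at 172, 300 and 344 CPM of markers and 217, 244 and 248 CPM of Gabrb2. Among high-dose libraries, high dose 2 had the lowest marker sum (279 CPM) and the highest Gabrb2 (297.7 CPM). Thalamus markers summed to only 223 CPM in levodopa 2 and 178 CPM in control 2, the libraries with high cerebellar markers, where Gabrb2 was highest. Their part in the result was not tested, since the covariate fit cannot tell regional markers from treatment. Over all genes that fit called 1 at the low dose against MPTP and 0 against control.

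Gabrd encodes the delta subunit of receptors outside synapses, which pairs with the product of Gabra6 in cerebellar granule cells and with that of Gabra4 in the forebrain. It had 45.1, 38.6 and 38.5 CPM at the high dose and 54.2, 40.75 and 48.2 CPM at the low dose. It had 1.94, 145 and 19.8 CPM in levodopa libraries, 16.0, 40.73 and 20.3 CPM in MPTP libraries and 49.4, 169 and 29.8 CPM in control libraries. The inhibitor libraries lay within 1.41-fold of each other, whereas the other groups spread widely, with the highest libraries being levodopa 2 and control 2. The lowest was levodopa 1, where 132 reads were counted and Gabra4 was also at its lowest. The low-dose libraries were clear of the MPTP libraries only by the gap between 40.75 CPM in low dose 2 and 40.73 CPM in MPTP 2.

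The log2 fold change of Gabrd over MPTP was 0.89 ± 1.01 (SE) at the low dose and 0.66 ± 1.00 at the high dose (edgeR adjusted p = 0.623 and 0.789), and turned to -1.21 and -1.19 with the regional covariates. For MPTP against control it was -1.69 ± 1.02, with means of 25.7 ± 13.2 CPM in MPTP libraries and 82.8 ± 75.4 CPM in controls (SD, n = 3 each, edgeR adjusted p = 0.717), with -0.63 in the fit without levodopa 2 and control 2 and -0.19 with the regional covariates. For levodopa against MPTP it was 1.11 ± 1.01 (edgeR adjusted p = 0.954), and -1.25 without those same libraries, so that its direction rested on levodopa 2.

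**Figure D2:**
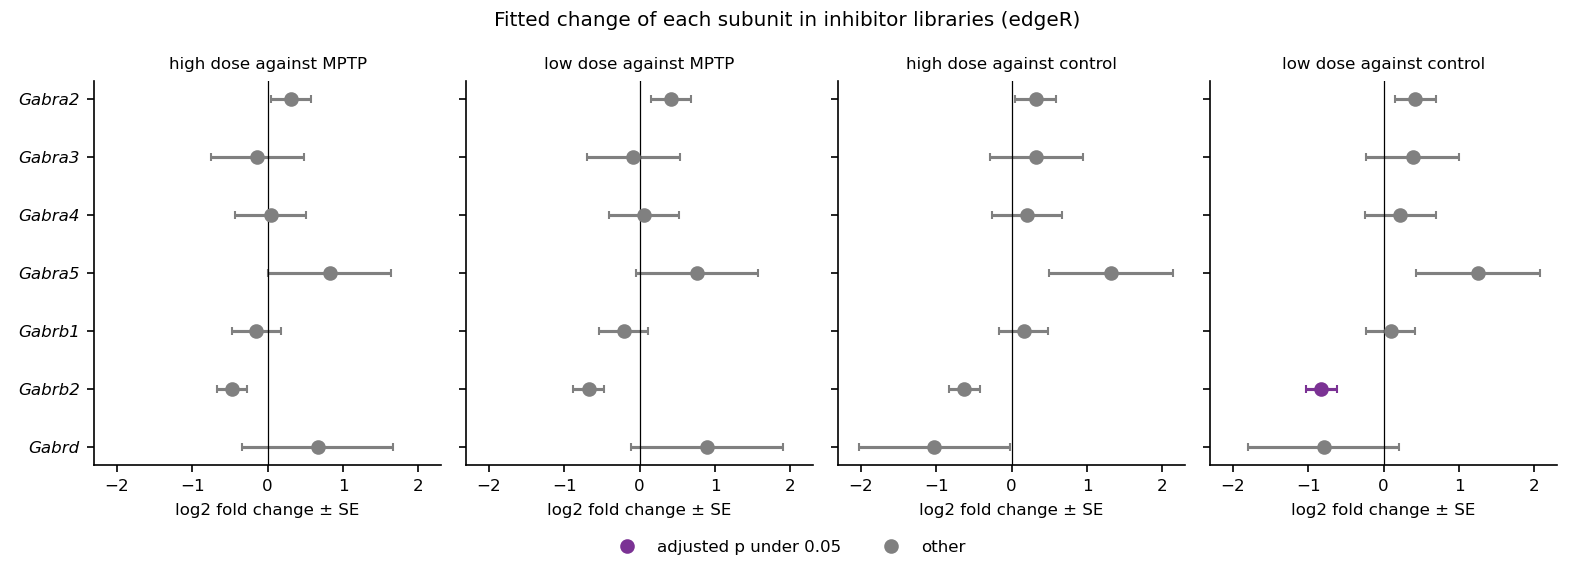
Log2 fold change (points) with its standard error (bars) of each subunit in edgeR's fit of 15 libraries, for each inhibitor dose against MPTP and against control (3 libraries per group). Only Gabrb2 at the low dose against control, at -0.83, passes an adjusted p of 0.05; Gabra5 and Gabrd have the widest bars against MPTP, at 0.81 and 1.01 for the low dose.

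**Figure D3:**
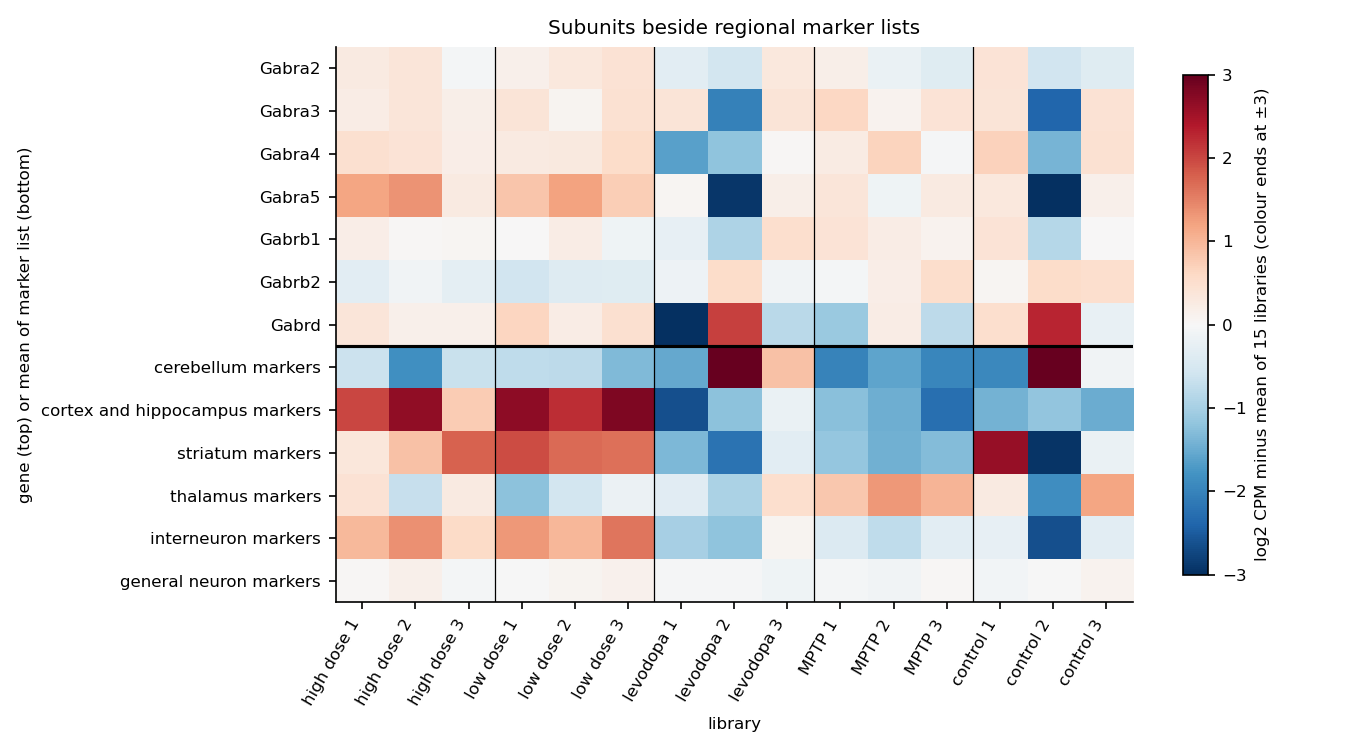
Log2 CPM of each subunit, and the mean of each regional or cell type marker list, relative to the mean of 15 libraries (colour, ending at ±3), by library. Levodopa 2 and control 2 stand out by high cerebellum markers with high Gabrd and low Gabra3 and Gabra5; the inhibitor libraries have higher cortex and hippocampus markers than the MPTP libraries.

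The balance between subunits was then compared within each library, as the share of reads that a gene took among Gabra2, Gabra3, Gabra4 and Gabra5, among Gabrb1 and Gabrb2, or among Gabrd and Gabra4. The 6 inhibitor libraries of both doses were set against the 3 MPTP or the 3 control libraries with a two-sided exact permutation test over 84 arrangements, whose smallest p is 0.0119, and p-values were adjusted over 12 such tests. Relative to MPTP libraries, Gabra2 and Gabrd took larger shares, and relative to controls Gabra5 did. In each of these 3 tests the libraries of the 2 sets did not overlap, and the smallest p restates that separation. Single genes separated in this way in 28.5% of cases against MPTP and in 17.1% against control.

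The Gabra2 share of alpha-subunit reads was 30.9%, 31.3% and 30.421% at the high dose and 30.5%, 33.3% and 32.8% at the low dose, against 30.419%, 26.7% and 26.0% after MPTP alone. Inhibitor libraries averaged 31.5% ± 1.22 (SD, n = 6) and MPTP libraries 27.7% ± 2.39 (SD, n = 3), a difference of 3.84 percentage points (exact permutation p = 0.0119, adjusted p = 0.0476). High dose 3 and MPTP 1 differed only in the third decimal. Levodopa libraries, at 32.3%, 54.5% and 35.7%, also all lay above the MPTP libraries, so the larger share was not shown to be particular to the inhibitor. In controls the share was 33.1%, 58.8% and 23.6%, which overlapped the inhibitor libraries (difference -6.98 points, exact permutation adjusted p = 0.481).

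The Gabrd share of Gabrd and Gabra4 reads was 27.2%, 25.1% and 27.9% at the high dose and 34.2%, 27.6% and 27.4% at the low dose, against 13.5%, 22.7% and 19.3% after MPTP alone. The inhibitor libraries averaged 28.2% ± 3.08 (SD, n = 6) and the MPTP libraries 18.5% ± 4.68 (SD, n = 3), a difference of 9.71 points (exact permutation p = 0.0119, adjusted p = 0.0476). Levodopa libraries ran from 6.44% in levodopa 1 to 79.4% in levodopa 2, and control libraries from 20.1% in control 3 to 83.7% in control 2. The difference from controls was -15.1 points and did not pass (exact permutation adjusted p = 0.429).

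The Gabra5 share of alpha-subunit reads was 16.8%, 17.9% and 11.2% at the high dose and 14.1%, 17.9% and 11.8% at the low dose, against 8.95%, 1.76% and 9.82% in controls. Inhibitor libraries averaged 14.97% ± 3.01 (SD, n = 6) and control libraries 6.85% ± 4.42 (SD, n = 3), a difference of 8.13 points (exact permutation p = 0.0119, adjusted p = 0.0476). MPTP libraries, at 10.1%, 8.14% and 11.6%, overlapped the inhibitor range, and the difference of 5.04 points did not pass after adjustment (exact permutation p = 0.0357, adjusted p = 0.0857). Levodopa libraries had 12.1%, 3.05% and 9.55%, so that levodopa 1 lay above all controls and inside the inhibitor range.

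The other shares did not pass. Gabra3 took 28.3% ± 2.77 of alpha-subunit reads in inhibitor libraries (SD, n = 6) and 34.6% ± 4.88 in MPTP libraries (SD, n = 3; exact permutation p = 0.0476, adjusted p = 0.0952). Gabra4 took 25.2% ± 1.36 in inhibitor libraries and 27.7% ± 7.18 in MPTP libraries (exact permutation adjusted p = 0.481). Gabrb1 took 38.0% ± 3.02 of Gabrb1 and Gabrb2 reads in inhibitor libraries, 32.3% ± 6.83 in MPTP libraries and 25.4% ± 11.05 in controls, with exact permutation adjusted p = 0.179 against MPTP and 0.0857 against control. With any 1 library left out none of the 3 calls passed, where adjusted p ran from 0.0714 to 0.167. The smallest p is then 0.0179 or 0.0357, and 3 of 12 tests at 0.0179 give an adjusted p of 0.0714, so this loss says nothing about stability. Regional markers differed between the same libraries, as above, and their part in the shares was not tested.

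**Figure D4:**
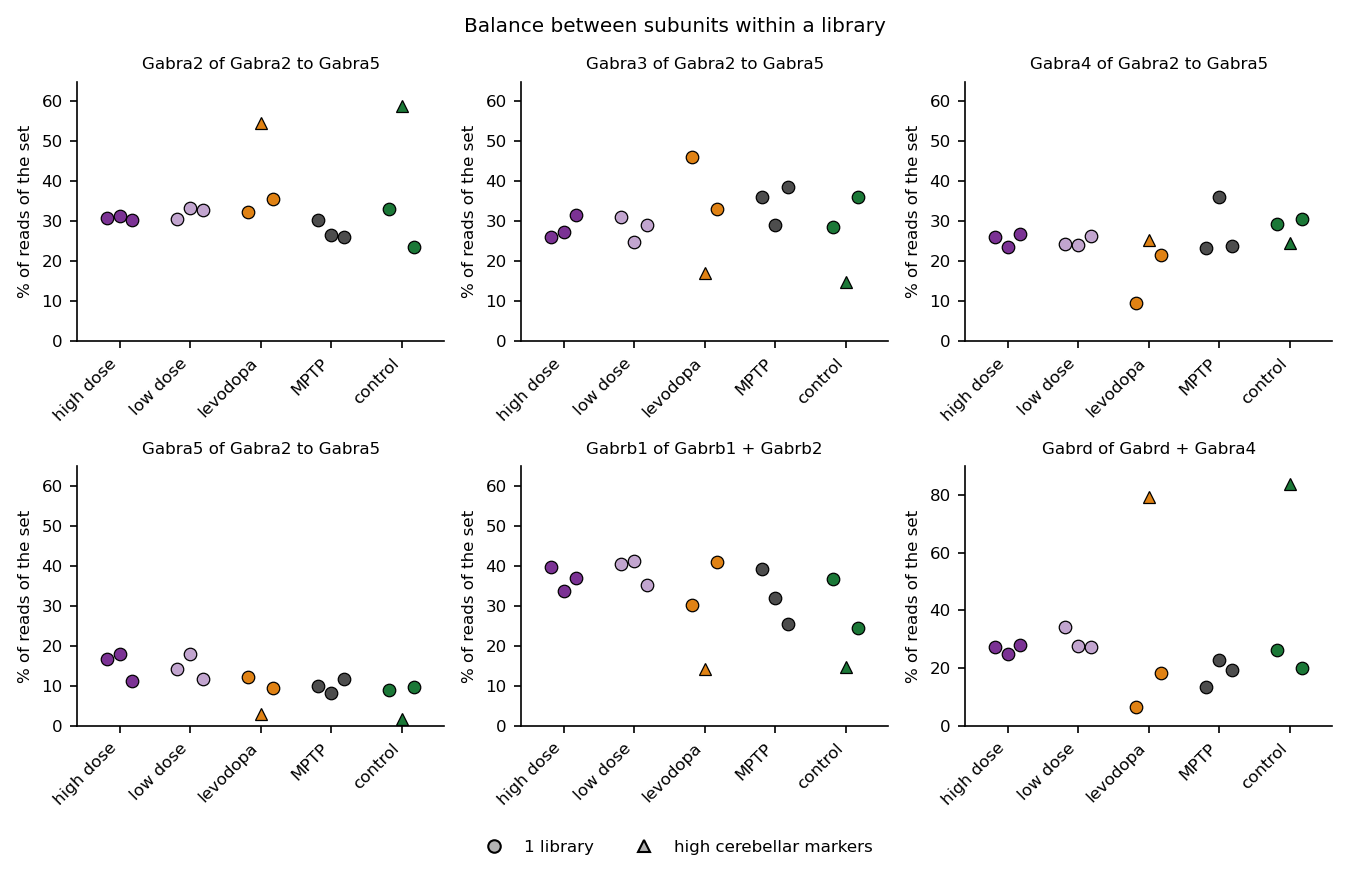
Share of reads, in percent, taken by a subunit within its set in each library, by group (3 libraries each); triangles are the libraries with high cerebellar markers. The inhibitor libraries have Gabrd shares of 25.1% to 34.2%, above the 13.5% to 22.7% of MPTP libraries, while levodopa 2 and control 2 reach 79.4% and 83.7%.

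Genes whose profile over the 15 libraries was most like that of each member were found by the smallest root mean square difference in centred log2 CPM, among 14224 genes. Among the nearest to Gabrb2 were Wwp1 (0.108) and Ppargc1a (0.135), the gene of a transcriptional coactivator of mitochondrial genes. Nearest to Gabra5 were Chrm3 (0.229), a muscarinic receptor gene, Hs3st4 (0.280) and Mal2 (0.297). The genes near Gabrd lay at a larger distance, among them Myo5c (0.762) and BB031773 (0.831). For Gabra2 the nearest were Dnal1, Smarca1 and Nanos1 (0.157 to 0.161), for Gabra3 Rab27b, Ankrd6 and Lingo2 (0.154 to 0.166), for Gabra4 Pdp1, Kif11 and Gpr12 (0.278 to 0.314), and for Gabrb1 Ptprn2, Astn1 and Grid1 (0.124 to 0.130). These distances are descriptions over libraries that share their depth and regional makeup.

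Of the other 12 GABA-A receptor subunit genes, 10 were tested and 0 were called by edgeR in any of the 8 comparisons. At an unadjusted p under 0.05 there were 3 of 10 at the low dose and 1 of 10 at the high dose against MPTP, and 4 of 10 and 3 of 10 against control. The shares of all genes at that level were 25.8%, 18.5%, 24.4% and 20.0% in the same order. DESeq2 called 1 at the low dose against MPTP, 2 at the low dose against control (among them Gabrr1) and 1, Gabrr1, at the high dose against control. Gabrg1, a gamma subunit gene in the chromosome 5 cluster, averaged 63.5 ± 5.97 CPM at the high dose, 46.3 ± 5.20 CPM at the low dose and 72.6 ± 17.0 CPM after MPTP alone (SD, n = 3 each), and its log2 fold change at the low dose was -0.65 ± 0.47 (SE, edgeR adjusted p = 0.428). Gabrq, which encodes the theta subunit, averaged 27.9 ± 10.1 CPM at the high dose, 15.2 ± 7.41 CPM at the low dose and 43.2 ± 26.0 CPM after MPTP alone (SD, n = 3 each), and its log2 fold change at the low dose was -1.51 ± 1.10 (SE, edgeR adjusted p = 0.426). The median log2 fold change of the 10 was -0.60 at the low dose and -0.31 at the high dose against MPTP.

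Elsewhere in the GABA pathway a few genes passed at the low dose against MPTP, and edgeR called 0 at the high dose in these lists, where DESeq2 called Aldh5a1, Gabbr2, Kctd12b and Wnk1. At an unadjusted p under 0.05 the high dose held 3 of 19 assembly, trafficking and anchoring genes, 1 of 8 metabolism genes, 2 of 6 GABA-B receptor genes, 1 of 6 chloride genes and 1 of 4 modulator genes, beside 18.5% of all genes. At the low dose against MPTP, 3.75% of all genes were called lower and 4.78% higher. In GABA synthesis, transport and breakdown, 2 of 8 genes fell and 0 rose at the low dose (list median -0.35). These were both breakdown enzymes, Abat (366 ± 89.4 CPM at the low dose, 618 ± 22.2 CPM after MPTP alone, log2 fold change -0.76, edgeR adjusted p = 0.0402) and Aldh5a1 (116 ± 14.6 CPM at the low dose, 170 ± 4.85 CPM after MPTP alone, log2 fold change -0.56, edgeR adjusted p = 0.0213). Of 6 GABA-B receptor genes 2 fell and 0 rose (list median -0.25), namely Gabbr2, a receptor subunit (217 ± 10.3 CPM at the low dose, 332 ± 49.5 CPM after MPTP alone, log2 fold change -0.61, edgeR adjusted p = 0.0322), and Kctd12b, from the family of GABA-B receptor auxiliary proteins (5.58 ± 0.873 CPM at the low dose, 11.3 ± 2.98 CPM after MPTP alone, log2 fold change -1.02, edgeR adjusted p = 0.0164).

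Of 6 chloride transporters and their regulators 1 fell and 0 rose at the low dose against MPTP (list median -0.34), the kinase gene Wnk1 (304 ± 15.2 CPM at the low dose, 442 ± 64.4 CPM after MPTP alone, log2 fold change -0.54, edgeR adjusted p = 0.0227). Of 19 genes of receptor assembly, trafficking and anchoring 1 rose and 0 fell (list median -0.05), namely Plcl2, whose product binds regulators of receptor trafficking (76.4 ± 25.1 CPM at the low dose, 36.4 ± 2.36 CPM after MPTP alone, log2 fold change 1.07, edgeR adjusted p = 0.0148). Of 4 tested genes for neurosteroids and benzodiazepine-site ligands, 0 passed with edgeR or DESeq2, and 1 had an unadjusted p under 0.05. Against control at the low dose, Plcl2 rose (log2 fold change 0.84, edgeR adjusted p = 0.0473) and Kctd8, another GABA-B auxiliary gene, fell (11.2 ± 1.04 CPM at the low dose, 21.0 ± 2.33 CPM in controls, log2 fold change -0.91, edgeR adjusted p = 0.0470), and edgeR called no other gene of these lists in that comparison. With the regional covariates, where edgeR called 1 gene of all those tested at the low dose against MPTP and 0 against control, none of these calls held (adjusted p from 0.699 to 0.983). Without levodopa 2 and control 2 the 6 calls against MPTP held and the 2 against control did not (edgeR adjusted p = 0.0533 for Kctd8 and 0.0849 for Plcl2).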

How the data were processed

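Per the labels' protocols, TruSeq Stranded mRNA libraries were made from mouse brain. The authors deposited raw counts, whole numbers of reads for each gene symbol in each library. Tools named in the submitters' processing notes are HISAT2 2.1.0, StringTie 2.1.3b, Trimmomatic and bcl2fastq 2.20.0, on GRCm38/mm10. Which annotation and strand setting served for counting, and how shared reads were handled, is not given in the sources used here.

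The members and gene lists were chosen with earlier results of these data known. Counts were tested with edgeR 4.0.16 (R 4.3.3): TMM, filterByExpr with the groups, a single quasi-likelihood fit to 15 libraries with no covariate, Benjamini-Hochberg adjustment at 0.05 over 21821 genes, checked on simulated counts. Standard errors are the fold change over the square root of F. Per-library levels are TMM-scaled CPM. Libraries of 1 group differed beyond sampling noise (chi-square per degree of freedom 31.7 to 512). Exon lengths came from GENCODE M21. Alternatives were RLE and upper-quartile factors, DESeq2 1.42.0, no filter, 5 CPM in 3 libraries, only the compared groups, a replicate block, regional scores as covariates (cerebellum, cortex and hippocampus, thalamus), and libraries left out. Named pathway genes were the passing members of each list, up to 3 with the smallest p per comparison, and all members; certain genes that the rule names are left out.

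Replicate numbers met the pairing rule (every same-numbered pair correlating above 0.1) only for levodopa against control, at 0.286, 0.801 and 0.368. Differently numbered pairs there ran from -0.631 (levodopa 3 with control 2) to 0.599 (levodopa 3 with control 1), so high correlation was not limited to equal numbers. The labels do not say what the numbers mark. The blocked fit there called 0 genes and 0 members, as did the fit without it.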

Additional observations from a re-analysis of the deposited data

How the results depend on the processing

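Directions of members reversed mainly with the regional covariates or a library left out, and calls changed with several settings. At the low dose against MPTP, 0 members were called, against 1 (Gabrb2) with upper-quartile factors, the 5 CPM filter, the replicate block or DESeq2, 2 (Gabra5 and Gabrb2) with only the compared groups, and 2 without levodopa 2 and control 2. At the high dose against MPTP, 1 (Gabra5) was called without that pair. At the low dose against control, the 1 call was 0 with no filter, with covariates or with only the compared groups, and 0 to 1 with a library left out. With covariates, log2 fold changes reversed for Gabra2 (-0.79 low, -0.66 high), Gabra4 (-0.89, -0.91) and Gabrd (-1.21, -1.19) against MPTP, Gabra5 at the high dose against control (-0.018) and Gabrd for levodopa against MPTP (-1.81); the last was -1.25 without the pair. The cause was not tested. With 1 library left out, against MPTP, Gabra3 ran from -0.21 to 0.058 (low) and -0.26 to 0.0051 (high), Gabra4 from -0.086 to 0.26 and -0.10 to 0.25, and Gabrd for levodopa from -1.25 to 1.70. Share differences then ran, against control, from -14.5 to 3.17 points (Gabra2), -3.99 to 6.55 (Gabra3) and -26.7 to 5.09 (Gabrd), and against MPTP from -4.75 to 1.59 (Gabra4); the 3 calls, lost each time, ran from 2.98 to 5.20 (Gabra2), 7.20 to 11.8 (Gabrd) and 5.58 to 9.61 (Gabra5). With a library left out the smallest p is 0.0179 or 0.0357, so that loss says nothing about stability. Log2 ratios changed no share call. Single doses, 3 libraries against 3, cannot pass and were not tested; the Gabra2 difference from MPTP was 3.18 points (high) and 4.50 (low). Numbers of genes called, low and high dose against MPTP then low and high against control, were 1861, 429, 1178 and 82, and became 3282, 1628, 2702 and 1366 with DESeq2 (2, 51, 2 and 54 for high against low dose, MPTP against control, levodopa against MPTP and levodopa against control, where edgeR called 0), 4253, 3560, 11 and 3 with only the compared groups, 1224, 214, 571 and 35 with no filter, 1, 3, 0 and 2 with covariates (1 for levodopa against MPTP), 5288, 2477, 1859 and 165 without the pair, and 421 to 1300, 18 to 138, 78 to 1444 and 15 to 65 with a library left out. The 5 CPM filter gave 256 for high dose against control. Replicate numbers did not pair libraries in these comparisons; the block gave 1723, 226, 1066 and 46 genes and changed no other member call.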
